A study of Mus musculus with 12 samples.

Results

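Genes of homologous recombination, of the Fanconi anaemia pathway and of the DNA damage checkpoint were followed exon part by exon part in mouse embryonic stem cells that had lost the kinase Cdk13. The genes were taken by name, 40 names in all, from the authors' deposited table of differential exon use, with every part of each gene kept whatever its class or value. Of the 40 names, 37 had at least 1 part, which gave 714 of the 138745 parts in the table. Bard1, Rad51c and Fancf had no part under those names and were not analysed here. An exon part is a stretch of a gene that was counted as a unit, usually an exon, a piece of an exon or an intron.

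Cells 48 h after doxycycline was withdrawn (minusDox48) and cells 72 h after (minusDox72) were each compared with cells kept in doxycycline at 1 ug/mL (plusDox). All groups, controls included, were V6.5 embryonic stem cells (C57Bl/6-129) in which Cdk13 was knocked out and replaced by a doxycycline-inducible Flag-HA Cdk13 transgene, so that withdrawing the drug removes Cdk13. The 12 libraries came from 2 clones, 11-8 and 14-1, with 2 libraries per clone and condition, called biological duplicates in the labels. Cells that lacked the transgene were not among the samples, so loss of Cdk13 and withdrawal of the drug cannot be told apart, and each line is a single clone. Both comparisons share the plusDox libraries.

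Homologous recombination repairs a broken chromosome by copying an intact sister. Checkpoint kinases sense the break, nucleases trim its ends, the BRCA proteins prepare them for pairing with the intact copy, and the Fanconi proteins do related work at crosslinked DNA. Loss of Cdk12, the closest relative of Cdk13, is known to lower full-length transcripts of many such genes, several of which are long and have many exons. Mouse embryonic stem cells divide fast and use this machinery heavily.

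The values were made by the authors with DEXSeq, which measures how much a part is used against the other parts of its gene. A log2 fold change is the use in cells without Cdk13 over the use in cells with it, and says nothing of the amount of the gene's RNA. In such bulk RNA, a change in each cell and a change in the mix of cells cannot be told apart. A part was called when the authors' adjusted p was below 0.05. The table gives no level per library, so depth, the spread between replicates, the loss of Cdk13 itself and the identity of the cells by marker level could not be given. Of 10 embryonic stem cell markers, 9 were in the table and 7 of them had an adjusted p at 72 h. For primitive endoderm this held for 5 and 4 of 5 markers, and for mesoderm and neural lineages for 5 and 4 of 6, which shows presence in the table and not a level. The RNA integrity number was 8.9 to 9.2 at 48 h, 8.9 to 9.3 at 72 h and 8.9 to 9.2 in doxycycline.

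Few parts of these genes were called as changed in relative use. At 72 h, 8 of 621 tested parts were called in the authors' deposited table, 4 higher and 4 lower in cells without Cdk13, which is 1.29%, against 3.6% of all tested parts. They lay in 7 of 37 tested genes, a share close to the 19.1% of all tested genes. The median gene here had 14 tested parts, although the median over all genes was 7. The parts that rose were a detained intron of Dna2, a detained intron of Fanci and a pair of neighbouring exons of Fanca. The parts that fell were the terminal exons of Brca1, Mdc1 and Rad51l3 and an intronic part of Eme1. The other 30 genes had no called part. Below an adjusted p of 0.1 stood 23 of the 621 tested parts, or 15 more, a smaller share than the 5.38% of all tested parts. Those 15 were 7 higher and 8 lower, among them 2 detained introns, both higher, and 2 terminal exons, both lower.

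At 48 h the authors' deposited table called none of the 275 tested parts, which lay in 29 of these genes, while DEXSeq called 1.62% of all tested parts and a part in 7.12% of all tested genes. Unadjusted p-values are not used here, and 3 of the 275 parts had an adjusted p below 0.1, a smaller share than the 2.82% of all. They were a cassette exon of Exo1, a nuclease of end trimming, at -0.11 (adjusted p 0.071), an exon of Fanca at 0.16 (adjusted p 0.097) and the terminal exon of Fancd2 at -0.098 (adjusted p 0.064) in the authors' deposited table. At 72 h the same 3 parts stood at -0.078, 0.074 and -0.090 in the authors' deposited table, with adjusted p of 0.44, 0.56 and 0.27. Another 8 genes had no tested part at 48 h. Among all 714 parts, 93 had no adjusted p at either time and were counted as not tested.

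The parts of all 37 genes are centred close to 0. Over their parts the median change on the log2 scale was 0.0039 at 48 h and 0.011 at 72 h, against 0.0025 and 0.0080 over all parts. The median size of the change, sign ignored, was 0.051 at 72 h, against 0.054 over all parts.

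**Figure D1:**
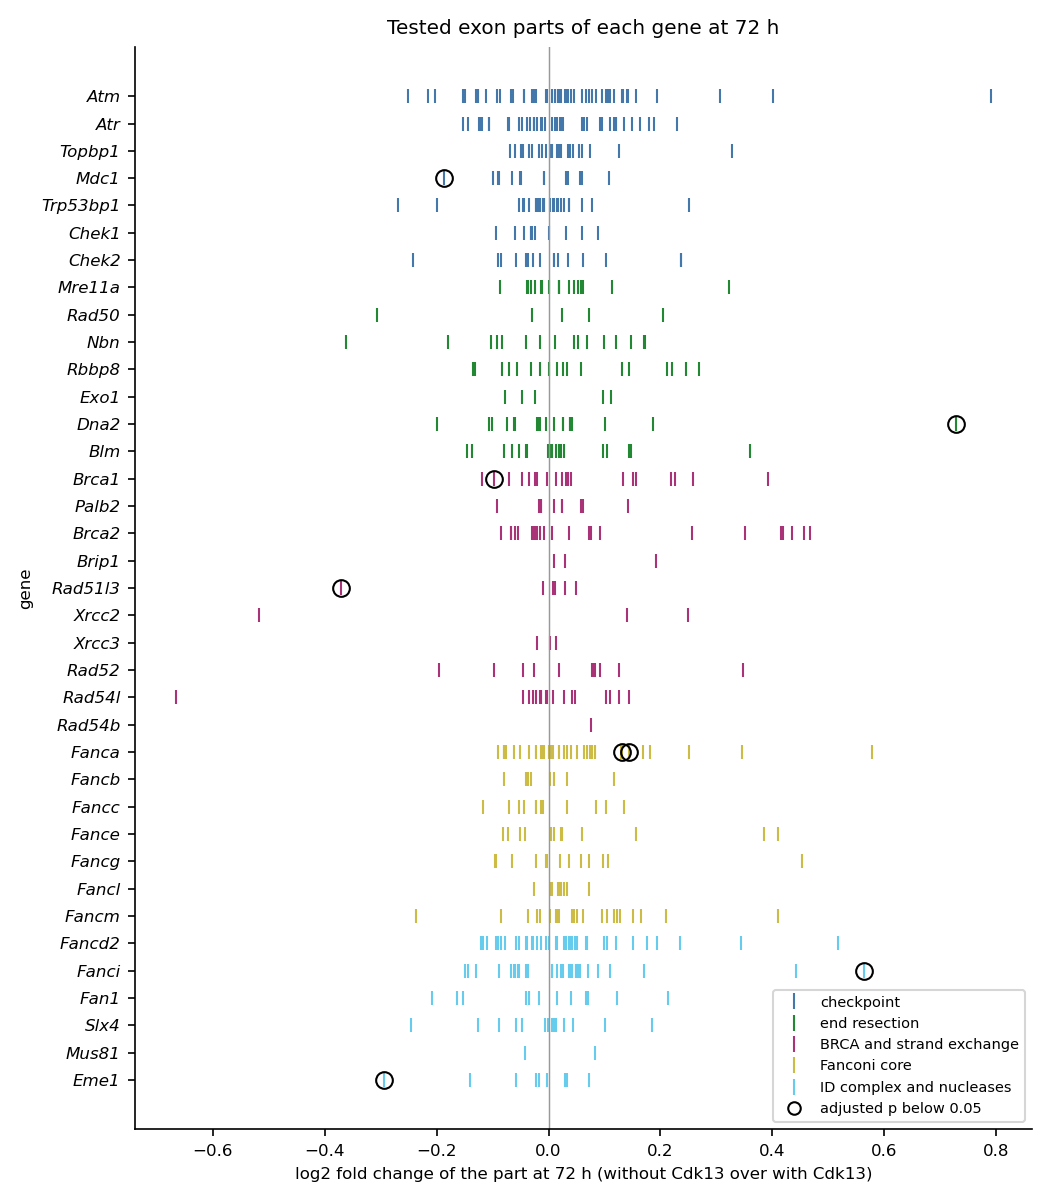
Log2 fold change at 72 h (x axis, cells without Cdk13 over cells with it) of each tested part (ticks, coloured by role), by gene (y axis), with called parts circled. The 8 called parts lie in 7 genes, 4 on each side of 0. Over all parts plotted the median size of the change, sign ignored, is 0.051.

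The sequences at the called introns of Dna2 and Fanci, at an intron of Brca1 that was not called (adjusted p 0.059 in the authors' deposited table), and of the called exons of Fanca are given here to show which stretches of the transcripts the values describe. No value was computed from them. For an intron, the line shows the spliced junction that forms when it is removed, with the last bases of the exon before it in lower case and the first bases of the exon after it in capitals. For Fanca, the whole exon is given in capitals, since the whole exon is the called part. All are from the GENCODE M21 transcripts (GRCm38) and were matched to the parts of the table by width.
Dna2 junction of exons 15 and 16 of 21: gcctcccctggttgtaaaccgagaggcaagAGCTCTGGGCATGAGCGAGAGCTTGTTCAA
Fanci junction of exons 27 and 28 of 38: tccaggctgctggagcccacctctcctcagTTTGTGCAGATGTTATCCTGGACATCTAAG
Brca1 junction of exons 19 and 20 of 23: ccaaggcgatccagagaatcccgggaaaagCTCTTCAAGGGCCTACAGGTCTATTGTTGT
Fanca exon 16 of 43: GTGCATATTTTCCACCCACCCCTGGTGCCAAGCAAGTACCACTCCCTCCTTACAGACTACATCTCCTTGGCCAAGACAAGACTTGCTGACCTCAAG
Fanca exon 17 of 43: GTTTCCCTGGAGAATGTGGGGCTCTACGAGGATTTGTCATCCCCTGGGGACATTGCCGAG

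Among the checkpoint genes, 7 names with 189 tested parts at 72 h, 1 part was called. The share to set beside this count, and beside that of each group below, is the 3.6% of all tested parts called at 72 h. Mdc1, the scaffold that binds marked chromatin beside a break, had a lower share of its terminal exon without Cdk13. This part (mm9 chr17:35995849-35996622, plus strand, 774 bases) was at -0.19 at 72 h (adjusted p 0.00034) in the authors' deposited table, and at -0.082 at 48 h (adjusted p 0.56). The last exon of Mdc1 in the annotation is 2208 bases long, longer than the part. The part just before it, which the authors class as alternative polyadenylation, was at -0.091 (adjusted p 0.089) at 72 h in the authors' deposited table, short of the threshold.

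No part of the apical kinases passed. Atm, which responds to breaks, had 53 tested parts at 72 h, and the one of lowest adjusted p, at an alternative 5′ splice site, was at 0.79 (adjusted p 0.13) in the authors' deposited table. Atr, which responds to stalled replication, had 41 tested parts with the lowest adjusted p at an exon with 0.16 (adjusted p 0.16) in the authors' deposited table. Chek1 and Chek2 are the kinases that Atr and Atm activate. For Chek1 the part of lowest adjusted p was at 0.089 (adjusted p 0.43) in the authors' deposited table. For Chek2 it was the terminal exon at -0.090 (adjusted p 0.058) in the authors' deposited table, close to the threshold and not past it. Topbp1, the activator of Atr, and Trp53bp1, which limits end trimming, had 27 tested parts each and none called. The terminal exon of Trp53bp1 was at -0.20 (adjusted p 0.070) in the authors' deposited table. The median over the checkpoint parts was 0.0065 at 72 h, and none of their 77 tested parts was called at 48 h.

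In the end-resection group, 7 genes with 102 tested parts, Dna2 had the only called part. Dna2 is a nuclease and helicase that trims the strand ending at the break. Its called part is a detained intron, that is, an intron kept in RNA that is otherwise spliced and polyadenylated. The intron part (mm9 chr10:62427842-62429163, plus strand, 1322 bases) was at 0.73 at 72 h (adjusted p 0.020) in the authors' deposited table and had no value at 48 h. The exon parts on either side were at -0.073 (adjusted p 0.74) and -0.0041 (adjusted p 0.98) in the authors' deposited table, so of these 3 parts the intron was the one called. The other detained intron of Dna2 was at 0.19 (adjusted p 0.58) in the authors' deposited table. Mre11a, Rad50 and Nbn form the complex that first holds and cuts the ends, Rbbp8 is their cofactor, Exo1 a nuclease and Blm a helicase. These 6 genes had no called part. Their combined group median, Dna2 included, was 0.012 at 72 h.

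The BRCA and strand-exchange group had 10 genes in the table and 100 tested parts at 72 h, of which 2 were called, both terminal exons that fell. Over all genes, 662 of 711 called terminal exons fell at 72 h as well. For Brca1, the ubiquitin ligase subunit that promotes resection, the terminal exon (mm9 chr11:101350059-101351226, minus strand, 1168 bases) was at -0.097 at 72 h (adjusted p 4.66e-05), the lowest of all member parts in the authors' deposited table. At 48 h it was at -0.024 (adjusted p 0.40) in the authors' deposited table. The part just before it was lower still, at -0.12, but not called (adjusted p 0.078) at 72 h in the authors' deposited table. The last annotated exon of Brca1 is 1149 bases long, close to the length of the part.

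Rad51l3, the current Rad51d, acts in the same step as the BRCA proteins. Its terminal exon (mm9 chr11:82686535-82691296, minus strand, 4762 bases) was at -0.37 at 72 h (adjusted p 0.014) in the authors' deposited table and had no value at 48 h. Its other 5 tested parts lay between -0.0091 and 0.049 in the authors' deposited table, so the terminal exon stood apart from the rest of the gene. The annotated last exon is 2325 bases long, shorter than the part.

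Brca2, which acts after resection, had no called part among 23 tested, yet its parts divided by position. This split at its longest exon part, of 4809 bases, was chosen after the values were seen. The 7 parts with a value 5′ of that part lay between 0.26 and 0.47 at 72 h in the authors' deposited table, with adjusted p from 0.15 to 0.68. The long part itself was at 0.092, and at 0.15 at 48 h (adjusted p 0.51), in the authors' deposited table. The 15 parts 3′ of it lay between -0.084 and 0.076, of which 4 were above 0, in the authors' deposited table. All 7 parts of the 5′ side were thus higher than all 15 of the 3′ side, while none passed the test and parts of a gene are not independent replicates. With genes split at the middle of their parts, the 5′ side had the higher median in 71.5% of 6343 genes at 72 h. In how many of all genes the sides do not overlap was not counted.

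Brca1 was split in the same manner at its longest unclassified part, of 2094 bases. All 7 parts with a value 5′ of it were above 0, with adjusted p of 0.34 or above, as were 5 of the 13 parts 3′ of it. The 5′ parts lay between 0.024 and 0.26 and the 3′ parts between -0.12 and 0.39 at 72 h in the authors' deposited table, so the sides overlapped. Without the detained intron at the top of that range, they overlapped only through a 5′ part of 3 bases. That part was at 0.024, and the highest 3′ part left was at 0.040, in the authors' deposited table. The median was 0.16 on the 5′ side and -0.021 on the 3′ side. As for Brca2, the share of all genes with sides so far apart was not counted. Palb2, the link between Brca1 and Brca2, had 10 tested parts, and that of lowest adjusted p, its terminal exon, was at -0.093 (adjusted p 0.63) in the authors' deposited table. The remaining names, Brip1 (a helicase partner of Brca1), Xrcc2 and Xrcc3 (which act in the same step), Rad52 (an annealing protein), Rad54l and Rad54b (motors on DNA), had 3, 3, 3, 12, 18 and 1 tested parts and no call.

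Among the Fanconi core genes, 7 in the table with 116 tested parts, Fanca alone had called parts, and both rose. Fanca is a subunit of the core complex that marks Fancd2 and Fanci with ubiquitin. The exon of 60 bases (mm9 chr8:125821667-125821726, minus strand) was at 0.14 (adjusted p 0.023) and the exon of 96 bases before it (mm9 chr8:125821810-125821905, minus strand) at 0.13 (adjusted p 0.026) at 72 h in the authors' deposited table. At 48 h they were at 0.098 (adjusted p 0.44) and 0.11 (adjusted p 0.25) in the authors' deposited table. They match exon 17 (60 bases) and exon 16 (96 bases) of 43 printed above, both with a length divisible by 3, and 83 bases of genome lie between them. The next exon part downstream was at 0.082 (adjusted p 0.25) in the authors' deposited table. Fancb, Fancc, Fance, Fancg and Fancl, the other core subunits, and Fancm, the helicase that anchors the core to DNA, had no called part. In Fancm a part near the 5′ end was at 0.41 (adjusted p 0.054) and one near the 3′ end at -0.24 (adjusted p 0.071) in the authors' deposited table, on opposite sides of 0 and both outside the threshold.

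The ID complex and the nucleases made up the last group, 6 genes with 114 tested parts, of which 1 rose and 1 fell at 72 h. Fanci, the partner of Fancd2, rose in a detained intron (mm9 chr7:86585634-86588625, plus strand, 2992 bases), at 0.56 (adjusted p 0.012) in the authors' deposited table. The exon part after it was at -0.052 (adjusted p 0.77) in the authors' deposited table, and was not called. The nearest exon part before it with a value was at -0.037 in the authors' deposited table.

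Eme1, the partner of the Mus81 nuclease that cuts joined DNA molecules, fell in a part of 57 bases (mm9 chr11:94510777-94510833, minus strand). It was at -0.29 at 72 h (adjusted p 0.023) in the authors' deposited table and had no value at 48 h. This part carries no class, and by its place it lies within an annotated intron of 1778 bases between exons 3 and 4. The parts on either side were at 0.072 (adjusted p 0.061) on the 5′ side and 0.029 (adjusted p 0.74) on the 3′ side in the authors' deposited table. Fancd2, the ubiquitin-marked clamp, had 42 tested parts, and that of lowest adjusted p was at -0.12 (adjusted p 0.064) in the authors' deposited table. Fan1, Slx4 and Mus81, a nuclease, a nuclease scaffold and a nuclease subunit, had 13, 14 and 2 tested parts and no call.

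**Figure D2:**
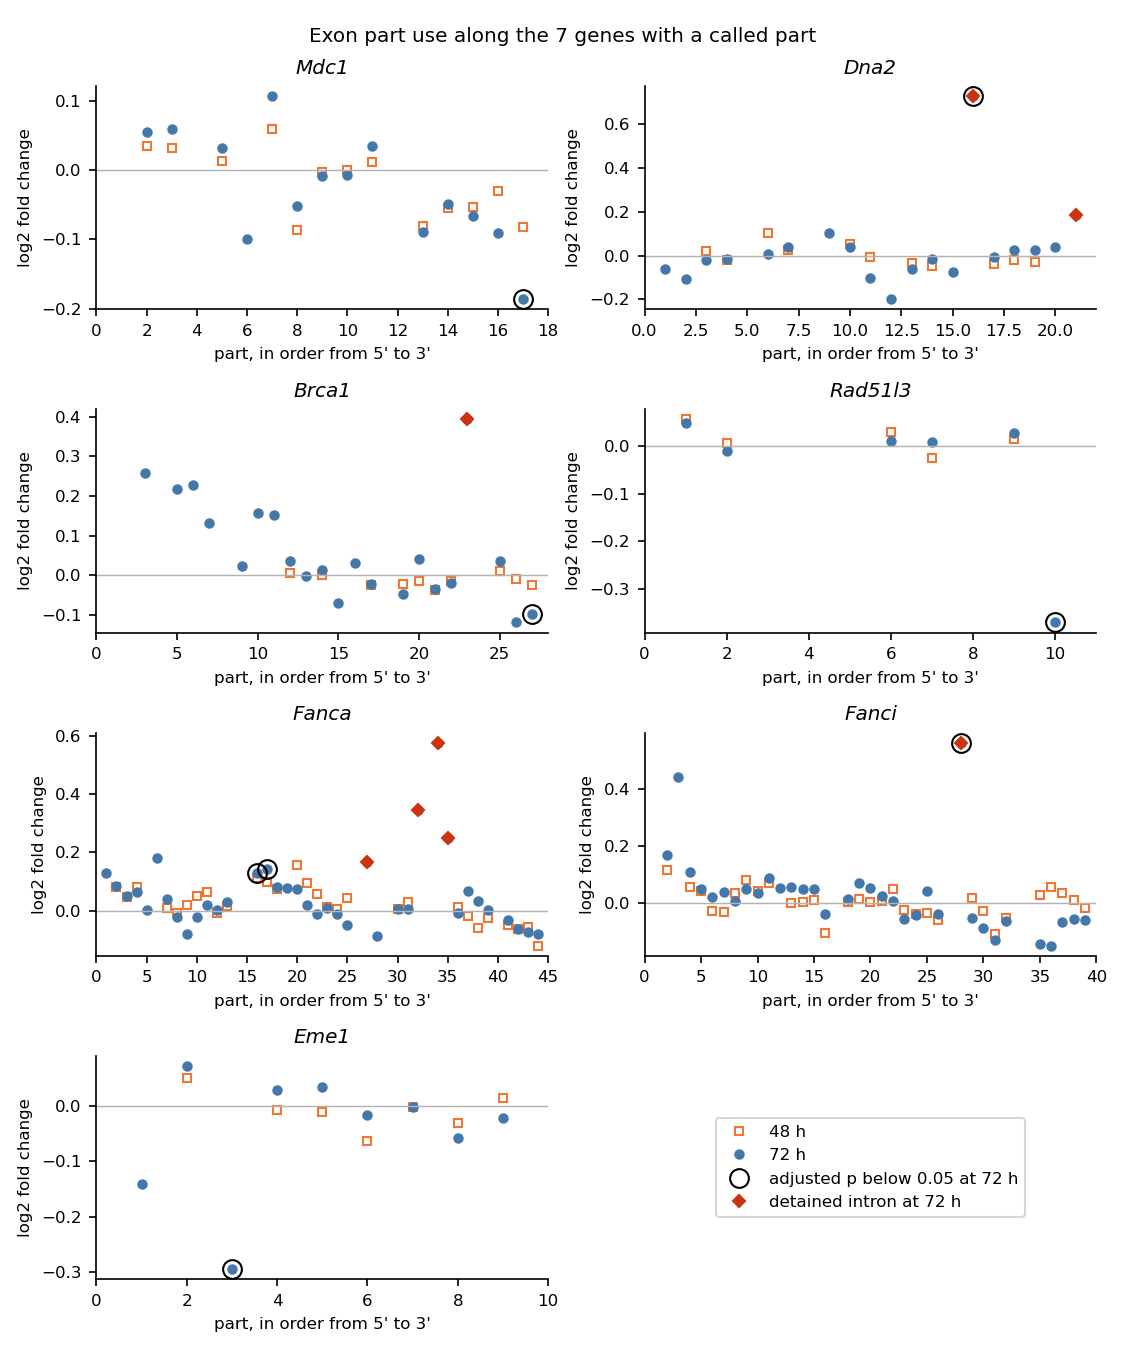
Log2 fold change of every part (y axis) in its order from the 5′ to the 3′ end (x axis) for the 7 genes with a called part, at 48 h (squares) and 72 h (filled circles, diamonds for detained introns), with called parts ringed. The intron parts of Dna2 at 0.73 and of Fanci at 0.56 stand above the exon parts beside them, and the called terminal exons of Brca1, Mdc1 and Rad51l3 are at -0.097, -0.19 and -0.37.

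Detained introns of these genes leaned to higher relative use at 72 h. They numbered 33 in 17 genes, of which 29 in 16 genes had a value at 72 h. Of the 29, 27 were above 0, or 93.1%, against 80.7% of 2609 over the whole table, and the median was 0.24 against 0.18. The called ones were the intron of Dna2 and that of Fanci, 2 of 29 or 6.9%, against 14.8% of all tested detained introns called higher. Each of the 16 genes had a median above 0, though many of these medians rest on 1 intron and that of Trp53bp1 was 0.010. The matching share over all genes was not counted. Compared with the median of the unclassified parts of its own gene, 27 of 29 introns were higher (93.1%), against 79.1% of all. The unclassified parts of these genes had a median of 0.010, so this count is not independent of the count above 0. Only 1 of the detained introns, in Topbp1, had a value at 48 h, and it was 0.016 (adjusted p 0.99) in the authors' deposited table, against 0.33 for the same intron at 72 h (adjusted p 0.33).

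In the checkpoint genes, the detained intron of Atm was at 0.40 (adjusted p 0.33) at 72 h in the authors' deposited table, and those of Chek2 at 0.24 (adjusted p 0.48) and 0.017 (adjusted p 0.93). The detained introns of Trp53bp1 were at 0.25 (adjusted p 0.38), 0.010 and -0.022, and the second of Topbp1 was at -0.069 (adjusted p 0.89) in the authors' deposited table. The negative values in Trp53bp1 and Topbp1 are the only ones among the 29. For the end-resection genes, Blm held 3, at 0.36 (adjusted p 0.15), 0.15 and 0.10, Mre11a 1 at 0.32 (adjusted p 0.23) and Exo1 1 at 0.097 in the authors' deposited table.

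The intron of Brca1 between exons 19 and 20 (mm9 chr11:101354921-101359246, minus strand, 4326 bases) was at 0.39 (adjusted p 0.059) at 72 h in the authors' deposited table, just outside the threshold. Its spliced junction is printed above. Brca2 had a detained intron at 0.036 (adjusted p 0.95) and Rad52 one at 0.35 (adjusted p 0.34) in the authors' deposited table. In the Fanconi core, Fanca held 5 detained intron parts, 4 of which lie in 1 annotated intron of 2955 bases between exons 31 and 32 and so are not separate events. The 3 of those with a value were at 0.58 (adjusted p 0.27), 0.35 (adjusted p 0.55) and 0.25 (adjusted p 0.073) in the authors' deposited table, and the part in another intron was at 0.17. Fancc was at 0.10 and Fancm at 0.051 in the authors' deposited table. Fancd2 held 4, all above 0, at 0.52 (adjusted p 0.17), 0.23, 0.34 and 0.18 in the authors' deposited table. The detained introns without a value were 4, in Brca2, Chek1, Fanca and Fanci.

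Most of the 33, or 84.8%, lay on the 3′ side of their gene's parts, as did 72.3% of 2770 detained introns in the table, with 4 of the 33 parts in 1 intron of Fanca, and the median width was 1219 bases against 1275. For 21 of the 33 the width was 1 base short of that of an annotated intron of the gene.

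**Figure D3:**
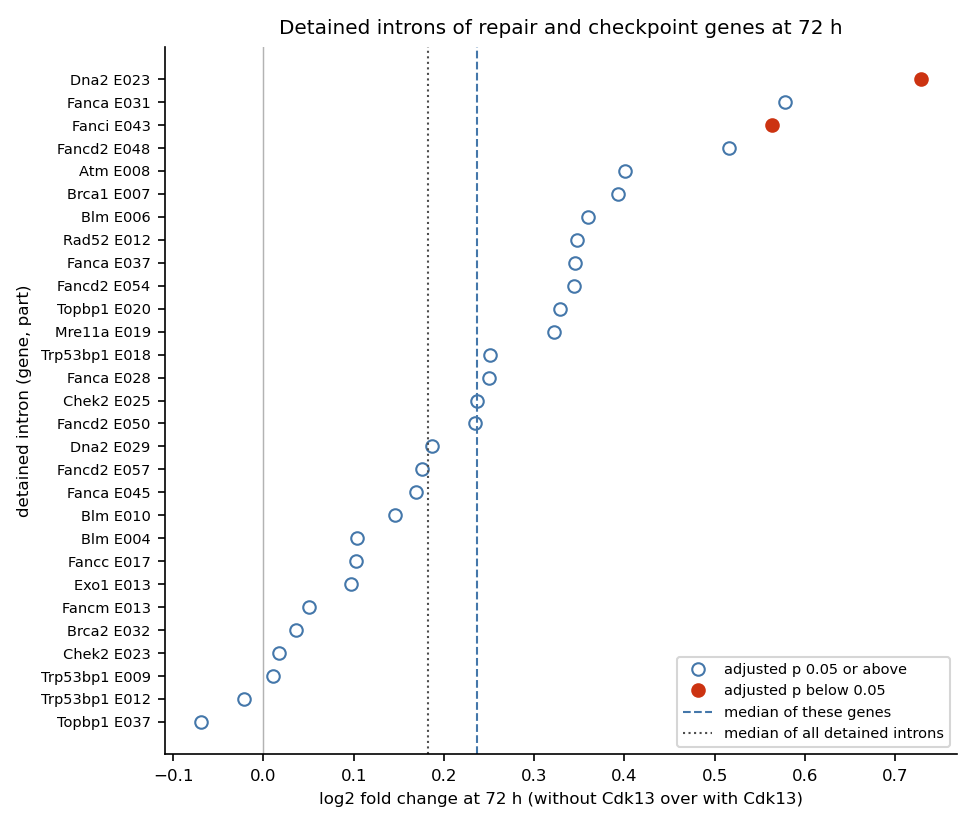
Log2 fold change at 72 h (x axis, cells without Cdk13 over cells with it) of the 29 detained introns with a value (y axis, gene and part), with the called ones in red, the median of these introns (0.24) as a dashed line and that of all detained introns (0.18) as a dotted line. Apart from 1 intron of Topbp1 and 1 of Trp53bp1, all stand above 0, and those of Dna2 and Fanci were called.

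Terminal exons leaned the other way. Of 30 terminal exons, 26 had a value at 72 h, and 23 of them were below 0, or 88.5%, against 75.3% of all. The median was -0.093, against -0.044 over all terminal exons, and 3 of 26, or 11.5%, fell, in Brca1, Mdc1 and Rad51l3, against 8.22% of all tested terminal exons called lower. At 48 h 13 had a value, of which 9 were below 0, or 69.2%, a smaller share than the 76.4% of all terminal exons. First exons stood near the table's own share: 16 of 22 were above 0 at 72 h, or 72.7%, against 72.3% of all, the median was 0.071 against 0.050, and none was called, against 5.33% of all tested first exons called higher. In the 15 genes with both ends measured at 72 h, the first exon was above the terminal exon in 11, or 73.3%, against 77.5% of 4797 genes, with a median difference of 0.19 against 0.10.

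The other classes held few calls. Intronic polyadenylation parts, where a transcript can end early inside an intron, numbered 32, of which 7 had an adjusted p at 72 h and none was called, against 6.74% of all. Their values were 0.14 in Blm, -0.11 in Dna2, 0.18 in Fanca, 0.19 in Fancd2, 0.44 in Fanci (adjusted p 0.47), -0.014 in Palb2 and 0.25 in Xrcc2 (adjusted p 0.42) in the authors' deposited table. Of these 7, 5 were above 0. Cassette exons, which are skipped or kept, numbered 22, of which 20 were tested and none called, against 2.36% of all. Of the unclassified parts, mostly internal exons, 3 of 502 were called, the pair in Fanca and the part in Eme1, or 0.598%, against 2.47% of all.

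Along the genes, relative use stepped down in order from the 5′ to the 3′ end. When each gene's parts were divided into 5 equal bins of order, the medians at 72 h were 0.052, 0.032, 0.012, -0.013 and -0.033, against 0.045, 0.024, 0.0092, -0.0011 and -0.026 over all genes. At 48 h they were 0.032, 0.014, 0.011, -0.016 and -0.019, against 0.032, 0.013, 0.0026, -0.0039 and -0.016. In every bin the median of these genes lay within the quartiles of all genes, a set that includes them. Those quartiles are of single parts, which a median of many parts would seldom leave, so nothing is concluded from this.

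**Figure D4:**
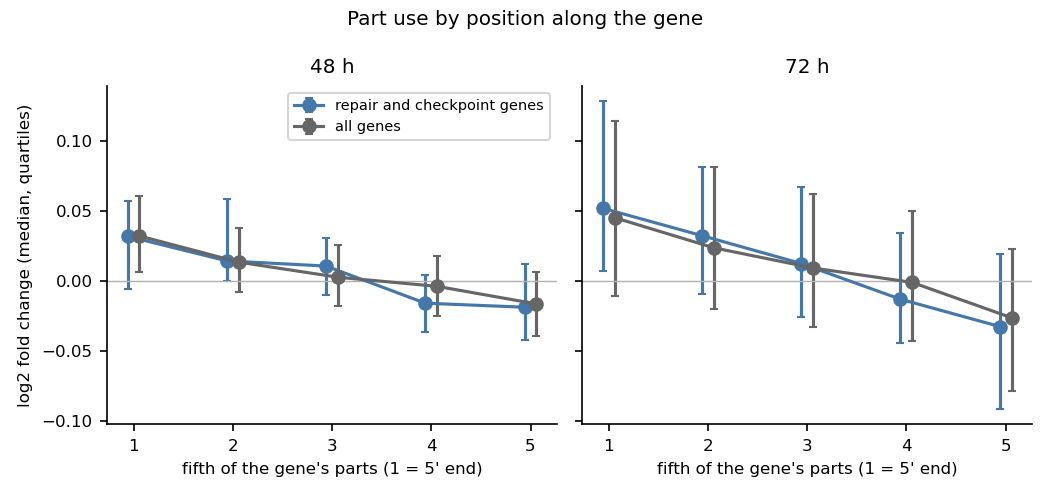
Median log2 fold change with quartiles (y axis) of the parts in each of 5 equal bins of a gene's parts from its 5′ end (x axis), for the repair and checkpoint genes and for all genes, at 48 h and 72 h. Both sets of genes step down from the 5′ end, at 72 h to medians of -0.033 and -0.026 at the 3′ end.

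By gene, the median of the 5′ side was above that of the 3′ side in 21 of 29 genes with enough tested parts at 72 h, or 72.4%, against 71.5% of 6343 genes. The median difference between the sides was 0.060 against 0.037. At 48 h this held for 11 of 12 genes, or 91.7%, against 78.0% of 2255. The largest difference at 72 h was in Brca2, with a median of 0.38 on the 5′ side and -0.026 on the 3′ side. Rbbp8 differed by 0.19 and Brca1 by 0.18. Fance, a core subunit, ran the other way, with a difference of -0.13.

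**Figure D5:**
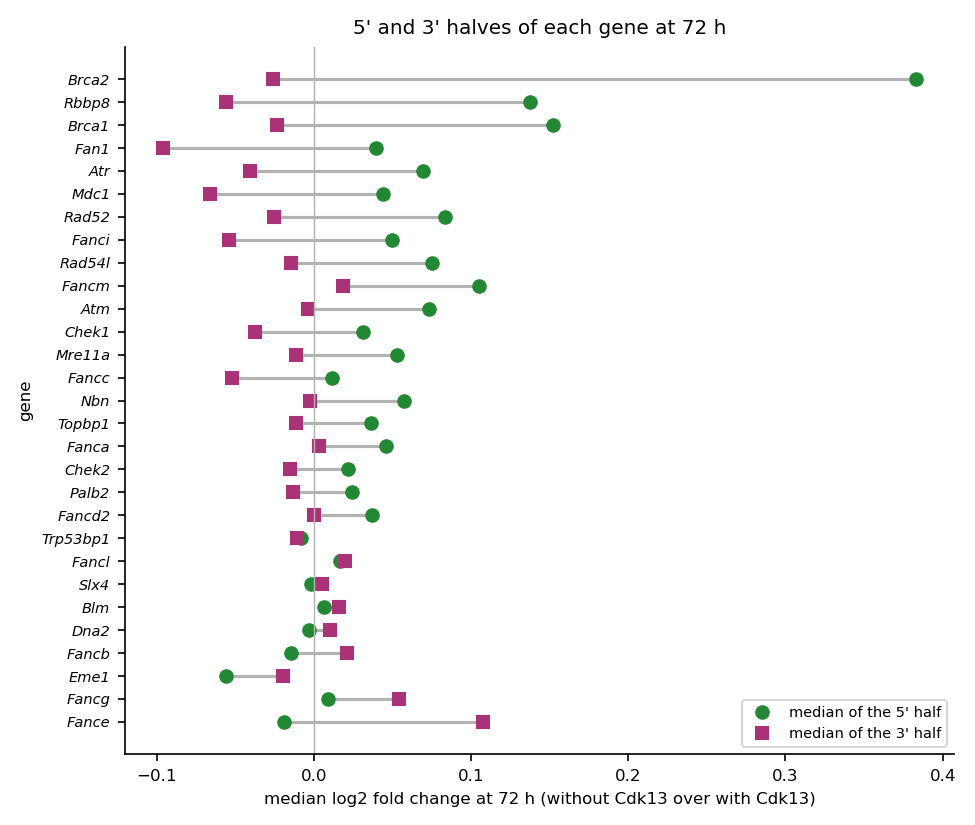
Median log2 fold change at 72 h (x axis) of the parts on the 5′ side and on the 3′ side of each gene (y axis) with at least 3 tested parts on each. The sides lie furthest apart in Brca2, at 0.38 and -0.026, and in 21 of the 29 genes the 5′ side is higher.

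Other genes of the same pathways were taken from a list of 76 names, of which 59 were in the table. At 72 h, 24 of 668 tested parts were called in the authors' deposited table, 16 higher and 8 lower, or 3.59%, against the 3.6% over all parts given above. They lay in 13 of 54 genes, or 24.1%, against 19.1% of all tested genes. At 48 h, 5 of 256 tested parts were called, or 1.95%, against 1.62% of all tested parts. Rnf8, a ubiquitin ligase at breaks, held 8 of the 24, and its parts lie at distant places under the 1 name. Without Rnf8 the count at 72 h was 16 of 650 parts, or 2.46%, in 12 of 53 genes, or 22.6%, against the same 3.6% and 19.1%.

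The called parts of lowest adjusted p in that list were as follows. An intronic polyadenylation part of Swi5, a recombination helper, rose at 72 h by 0.34 (adjusted p 2.52e-05) in the authors' deposited table. An exon part of Rpa1, the protein that coats single strands, fell by 0.076 (adjusted p 0.00013) in the authors' deposited table. An exon part of Trp53, the effector of the damage response, rose by 0.032 (adjusted p 0.00065) and one of Parp1, a sensor of strand breaks, by 0.050 (adjusted p 0.0012) in the authors' deposited table. Of the 33 detained introns tested in that list, 29 were above 0, with a median of 0.25. Over all detained introns, 80.7% were above 0 and the median was 0.18. DEXSeq called 5 of the 33, all higher, or 15.2%, against 14.8% of all tested detained introns called higher. Over all genes, 385 of 398 called detained introns were higher as well. Among the 5 were introns of Wdr48 at 0.60, Top3a at 0.49, Helq at 0.38 and Rnf8 at 0.38 in the authors' deposited table, named after their values were seen.

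In 5 of the 37 genes the gene body overlaps another gene on the opposite strand, namely Eme1 with Lrrc59, Fanca with Zfp276, Fanci with Polg, Fancl with Vrk2 and Rad54l with Lrrc41. In all, 7 parts overlap a part of another name, and none of the 8 called parts does. The libraries were strand-specific, per the labels, while the strand setting of the counting is not given in the sources used here.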

How the data were processed

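RNA from 12 libraries was compared. The authors' table was analysed as deposited; it holds, per the file headers, the log2 fold change of each part from DEXSeq, the adjusted p-value (FDR) and a significance mark. Per the submitters' processing notes, STAR 2.4.1d and mm9 were used. How parts were counted and annotated, the DEXSeq version and its covariates: not given in the sources used here. No values per library are used, so depth is unknown, p-values are the authors' own, and the replicates are those the labels call biological duplicates of 2 clones.

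Parts were taken by gene name, 40 names, and counted with Python 3.11.15 and pandas 2.3.3 (numpy 2.4.6, matplotlib 3.10.9), at the authors' adjusted p below 0.05, with counting checked on data with known answers. The members and lists were chosen with earlier results of these data known. Named were every called part, the part of lowest adjusted p of Brca1, Brca2, Atm, Atr, Chek1, Chek2, Fancd2 and Palb2, and every tested detained intron and intronic polyadenylation part. Rad51c, also in this rule, has no part in the table. From the list of 76 names, up to 4 genes were named by their called part of lowest adjusted p. Parts beside a called part, those near the threshold, the Brca2 and Brca1 splits, and other genes with large differences were named after their values were seen. Alternatives were other thresholds, a minimum fold change, classes or genes left out, and medians per gene. Exons and introns were matched to GENCODE M21 by width.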

Additional observations from a re-analysis of the deposited data

How the results depend on the processing

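The count of called parts at 72 h, 8 as reported, was 2 at an adjusted p below 0.01, 23 below 0.1, 5 without unclassified parts and 4 among parts tested at both times. The count of genes, 7, was 2 below 0.01, 11 below 0.1 and 3 among parts tested at both times. At 48 h, 0 parts and 0 genes became 3 and 3 below 0.1. With a log2 change of at least 0.1 as well, 7 parts in 6 genes were called at 72 h, and without Fanca 6 parts in 6 genes. The median of all parts at 48 h, 0.0039, was -0.00998 without unclassified parts and -0.0023 as a median of gene medians; the cause was not tested. The detained intron median at 72 h, 0.24, was 0.23 with 1 part kept for the Fanca intron that is counted in several parts. It was 0.22 over gene medians, and both alternatives were chosen after seeing the data.

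No paired analysis was possible because values per library are not used here, and for the same reason no replicate was left out. At 48 h no gene had a called part, so leaving out the gene with the most gives no value. DEXSeq values are relative to the gene, and a change shared by all parts of a gene is not seen in them. Depth is unknown, and 93 parts have no adjusted p at either time.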
